A study of Mus musculus with 6 samples.

Results

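Lysosomal sphingolipid breakdown was followed through 8 genes, Psap, Gm2a, Hexa, Galc, Asah1, Smpd1, Smpdl3a and Smpdl3b, out of 55401 genes in the deposited table. They were picked by symbol, with their differences between the genotypes already known. The edgeR results printed for them are therefore description and not independent evidence. The samples are bone marrow-derived macrophages from C57BL/6 mice, cultured for 7 days with M-CSF at 40 ng/mL, the growth factor that drives macrophage differentiation, and 10% serum. There are 3 libraries labelled wild type (WT) and 3 labelled Mettl3-/- (KO), and no sex, age, Cre driver or further allele is given. Mettl3 is the catalytic component of the complex that deposits N6-methyladenosine in RNA. A later treatment is mentioned in the growth protocol without being named, and the labels do not tell whether replicates are different mice or different cultures. The p-values therefore reflect the spread among these libraries alone, which may be technical.

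Sphingolipids are membrane lipids built on ceramide. They reach the lysosome by endocytosis and phagocytosis, where hydrolases remove the sugars or the phosphocholine head group one step at a time and acid ceramidase finally splits ceramide into sphingosine and a fatty acid. Several of these enzymes need small activator proteins that lift the lipid out of the membrane: saposins A to D, cut from prosaposin, and the GM2 activator. Loss of single steps causes lysosomal storage diseases, among them Tay-Sachs, Krabbe, Farber and Niemann-Pick disease, in which macrophages often fill with undegraded lipid.

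Library totals ran from 67280390 to 77997742 estimated counts. RNA of the targeted gene, Mettl3, showed no drop with the KO label: its FPKM ranged from 2.26 to 2.91 in WT and from 2.504 to 2.93 in KO (edgeR adjusted p = 0.93 for a log2 fold change of 0.02, SE 0.11). The labels do not say which exons were removed, and a whole-gene value can stay level when only some are, so this value does not check the labels. Directions below are those of the libraries labelled KO. All 8 macrophage markers examined were present, and 6 of them passed the edgeR test: Csf1r, Fcgr1 and Mertk were higher and Adgre1, Mrc1 and Lyz2 lower. Lyz2, the lysozyme gene, fell from 14189 to 6012 FPKM, or by 1.26 on the log2 scale (edgeR adjusted p = 3.33e-07). Of 6 T and NK cell markers, none was called. In 3 of the 6, all 3 libraries labelled KO were higher than any WT library, as in 19.1% of all tested genes. The summed FPKM of the 6 was 6.53 to 6.9 in WT and 7.98 to 8.28 in KO. The 5 neutrophil markers summed to 48.8 to 55.4 FPKM in WT and 42.6 to 52.4 in KO, mostly S100a9 (35.5 and 29.1, not called) and S100a8 (15.8 and 16.8, not called), and Mpo alone among them was called, higher, from 0.197 to 0.553 FPKM. Markers of B cells, mast cells and dendritic cells lay under 1 FPKM in every library for 14 of 15 genes, Ccr7 being the exception, while Pf4, a platelet factor gene listed as a megakaryocyte marker, fell from 180.5 to 141 FPKM. The part of other cells in the results below was not tested, and fewer cells of a type cannot be told apart from less RNA per cell. Over all genes, 2060 of 16256 tested (12.7%) passed the edgeR test at an adjusted p under 0.05, 1139 higher (7.01%) and 921 lower (5.67%). With any 1 of the 6 libraries left out, 1244 (without WT replicate 2) to 1339 (without KO replicate 2) genes passed. WT replicate 1 and KO replicates 2 and 3 stood apart from the other 3 libraries for Asah1 and several other genes, described below with Asah1.

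All 8 genes passed the filter on low counts. In the libraries labelled KO, Smpdl3b was about 2-fold higher and Smpd1 about 1.4-fold higher, Hexa was lower (ratio 0.899), and the other 5 genes had ratios of 0.883 to 1.04. Of the 8, 4 passed the test over all genes, Smpdl3b and Smpd1 higher and Hexa and Psap lower, where 12.7% of all tested genes passed (7.01% higher, 5.67% lower). For 6 of 8 the FPKM of the groups did not overlap, Smpdl3b, Smpd1 and Gm2a higher and Hexa, Psap and Galc lower, where 33.8% of all tested genes did not overlap (19.1% higher, 14.6% lower). Nothing is read from these counts, since the genes were selected with this contrast known. The median log2 fold change of the 8 genes was -0.04, next to 0.00 over all tested genes.

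**Figure D1:**
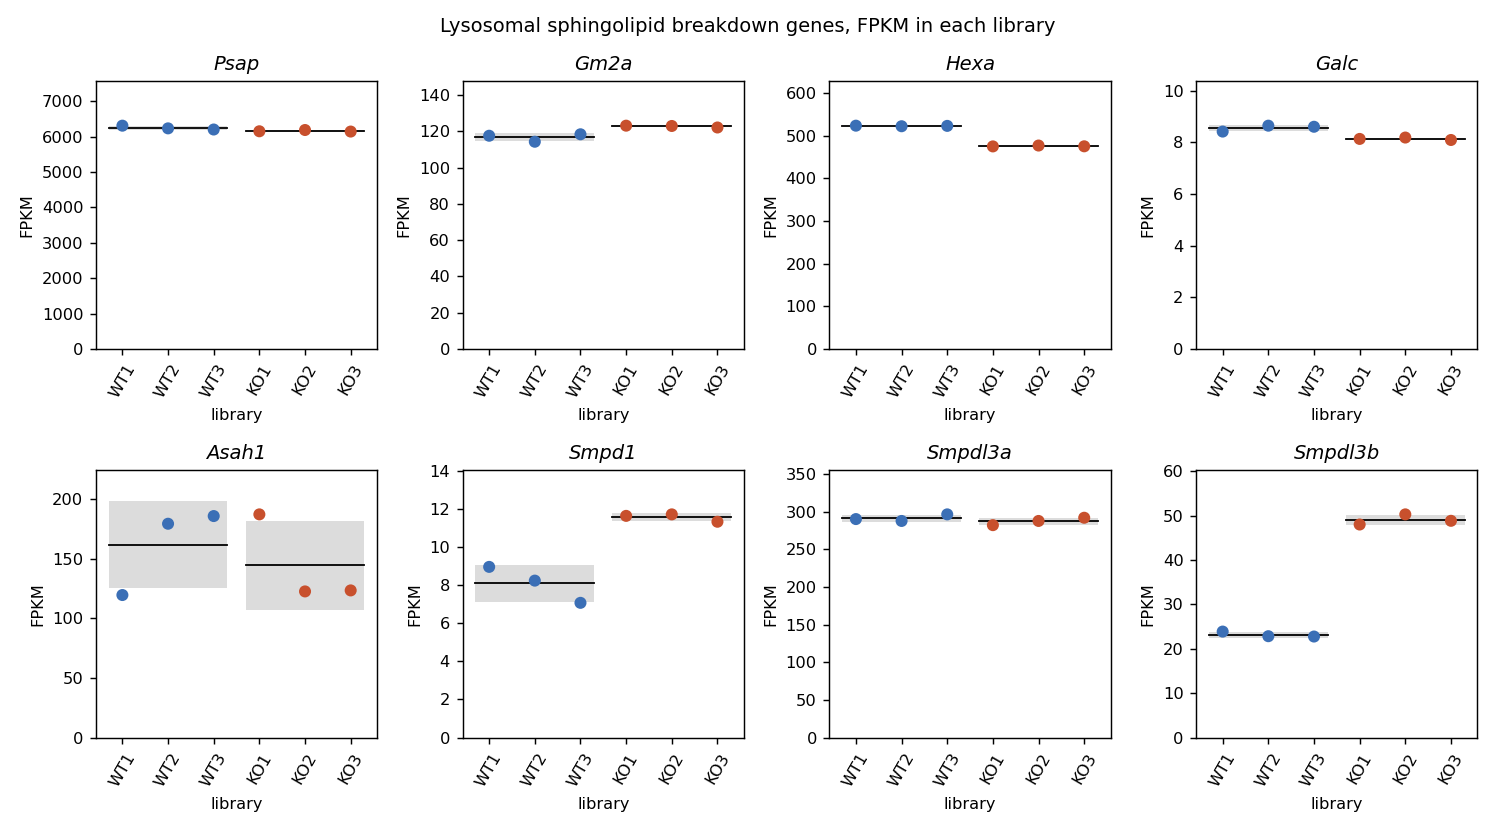
FPKM of the 8 genes in each of the 6 libraries (vertical axes from 0; blue, WT; red, labelled KO; line, group mean; grey band, 1 SD, n = 3). Smpdl3b sits at 22.8 to 23.9 in WT and 48.0 to 50.3 in KO, while Asah1 splits within both groups.

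Prosaposin is the most abundant transcript of the set by far. Psap, the precursor of all 4 saposins and also a secreted protein, read 6313, 6237 and 6205 FPKM in WT and 6155, 6191 and 6147 in KO. All KO values lie below all WT values, but the gap is small: the means were 6252 ± 55.7 and 6164 ± 23.3 FPKM (SD, n = 3). From counts, edgeR put the log2 fold change at -0.04 (SE 0.007), with 95% limits of 0.963 and 0.986 on the ratio. From log2(FPKM + 0.1), limma put it at -0.02, so its size depends on the measure used. The edgeR call for Psap was lost without WT replicate 2 or any 1 of the 3 KO libraries. It was also lost with a replicate block (edgeR adjusted p = 0.0615), and DESeq2 and limma made none. Psap was called in 5 of 14 alternative analyses. The log2 fold change stayed below 0 throughout, from -0.04 to -0.02. Psap alone took 1.89% to 1.95% of all estimated counts in each library, against 0.307% to 0.333% for the other 7 genes together. By FPKM its rank among all genes was 5 in every WT library and 4 in every library labelled KO. Lyz2 lay above Psap in WT, at a mean of 14189 FPKM, and below it in KO, at 6012, so the rank is no rise of Psap.

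Gm2a encodes the GM2 activator, the partner that presents ganglioside GM2 to hexosaminidase A. It read 118, 114 and 118 FPKM in WT and 123, 123 and 122 in KO. The groups did not overlap, with means of 117 ± 2.18 and 123 ± 0.537 FPKM (SD, n = 3) and a log2 fold change of 0.06 (SE 0.019), which did not pass over all genes.

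The promoter sequences come from RefSeq (build GRCm38.p6), which gave a window of 250 bases before to 50 after a transcription start for 6 of the 8 genes; Asah1 and Smpdl3a had no entry. Each stretch below is 30 bases, read 5′ to 3′ on the gene's strand, with the motif in capitals. They are shown for the genes with the clearest differences. The first 3 hold CCAAT or its reverse complement ATTGG, in the 2 genes with higher calls and in Hexa. They lie at chr4:132757221-132757250 for Smpdl3b (minus strand), with the motif 66 bases before the RefSeq start, at chr7:105554246-105554275 for Smpd1 (plus strand), 101 bases before it, and at chr9:59539407-59539436 for Hexa (plus strand), 120 bases before it. The last is CACGTG in Smpdl3b (chr4:132757122-132757151, minus strand), at base 43 counted from the RefSeq start, the core of the element that TFEB, the regulator of lysosomal genes, is known to bind. The RefSeq start of Smpdl3b lies 81 bases inside the gene as GENCODE M21 annotates it, so both of its stretches fall within the annotated gene, while the RefSeq starts of Smpd1 and Hexa are those of GENCODE.
Smpdl3b, CCAAT: gtgcgtccctcctCCAATcaagcgcacgcc
Smpd1: accgcccggggtgATTGGgctgtggctgaa
Hexa: gttgacactgcaaATTGGattctcattttc
Smpdl3b, CACGTG: caaacgagtagttctgcccagaCACGTGgc

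These motifs are common or seen once among the 6 genes. Searched on both strands, CCAAT was present in 3 of 6 windows (41.1% of 27025 genes, counting any window of a gene), GGGCGG in 5 of 6 (38.2%) and CACGTG in 1 of 6 (8.09%). TTCNNNGAA, where N is any base, was in 1 of 6, that of Gm2a (9.55%). GAGGAAGT, a form of the site of the macrophage factor PU.1, and a repeat form of the interferon response element were in 0 of 6 (3.69% and 3.99% of all genes). Among the other lysosomal enzymes of the pathway and their helpers, CACGTG was in 5 of 8 windows, those of Glb1, Gla, Arsa, Ctsa and Sumf1. The motifs were chosen with the results known, and a match is a description of the letters only.

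Hexa, the alpha subunit of hexosaminidase A, which cuts the terminal sugar off GM2, had the tightest replicates of the set. It read 524, 523 and 523 FPKM in WT and 475, 477 and 475 in KO. No KO value comes near a WT value: the means were 523 ± 0.670 and 476 ± 1.12 FPKM (SD, n = 3). From counts, edgeR gave -0.15 on the log2 scale (SE 0.011), and limma on log2(FPKM + 0.1) gave -0.14. The call held in all 14 alternative analyses, which reuse the libraries on which the gene was picked. Hexa shares 255 exonic bases with Tmem202 on the opposite strand, but Tmem202 carried only 19 to 72 estimated counts beside at least 73173 for Hexa.

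Galc, the galactosylceramidase lost in Krabbe disease, read 8.42, 8.65 and 8.61 FPKM in WT and 8.14, 8.19 and 8.096 in KO. The groups did not overlap, with means of 8.56 ± 0.122 and 8.14 ± 0.0474 FPKM (SD, n = 3) and a log2 fold change of -0.09 (SE 0.026), which did not pass over all genes. How low this level reads depends on the length used. Comparing counts with FPKM gave the length each gene was divided by, and for 98.8% of 7606 well-covered genes it lay within 2% of the length of all annotated exons merged. For Galc that length was 14881 bases, while its longest coding transcript has 3832. Divided by 3832 instead, the same counts give 33.2 in WT and 31.6 in KO, a factor of 3.88. The median factor was 1.352 over 7359 well-covered genes with a coding transcript, and only 1.67% had one at least as large as Galc. On that scale Galc still came at place 6 of the 8 genes in WT and 7 in KO.

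Asah1, which encodes acid ceramidase, fell into separate levels that crossed the genotype labels. It read 120, 179 and 186 FPKM in WT and 187, 123 and 123 in KO. WT replicate 1 and KO replicates 2 and 3 were low, and the other 3 libraries were high, each about 1.5-fold apart within its group (highest over lowest 1.55 in WT and 1.53 in KO). Its estimated counts were 30679 to 53455. The log2 fold change was -0.18 (SE 0.22, 95% limits -0.72 and 0.36) and moved between -0.41 and -0.07 with 1 library left out, limits wide enough to hide a difference of the size seen in Hexa. A spread of at least 1.4-fold within both groups was found in 31 of 1378 genes with a mean count of at least 10000 (2.25%).

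The same 3 libraries were low for Gla, the alpha-galactosidase A that cuts globosides, which was singled out after its values were seen. Gla read 37.0, 78.1 and 81.5 FPKM in WT and 73.2, 33.4 and 40.6 in KO. Acer3, a ceramidase outside the lysosome, ran the other way, at 3.46, 1.51 and 1.62 FPKM in WT and 2.15, 4.83 and 4.06 in KO, and was also chosen on its values. Neither was called (edgeR adjusted p = 0.551 for Gla and 0.328 for Acer3). Library totals, Psap and the mitochondrial share of counts, 2.53% to 3.11%, did not fall into these 2 sets of libraries, and a cause was not tested. Among 9305 genes, those most like Asah1 over the 6 libraries were Nanp (r = 0.9971), Yeats4 (r = 0.9908) and Uvrag (r = 0.9855), also looked up after its values were seen. Nanp, a sialic acid phosphatase gene, read 4.63, 4.04 and 5.73 FPKM in WT replicates 2 and 3 and KO replicate 1. It was listed at 0 counts in WT replicate 1 and at 0.0283 and 0.0146 FPKM in KO replicates 2 and 3. Uvrag, an autophagy and endosome trafficking gene, read 6.3, 16.2 and 15.4 FPKM in WT and 14.5, 6.39 and 5.74 in KO.

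**Figure D2:**
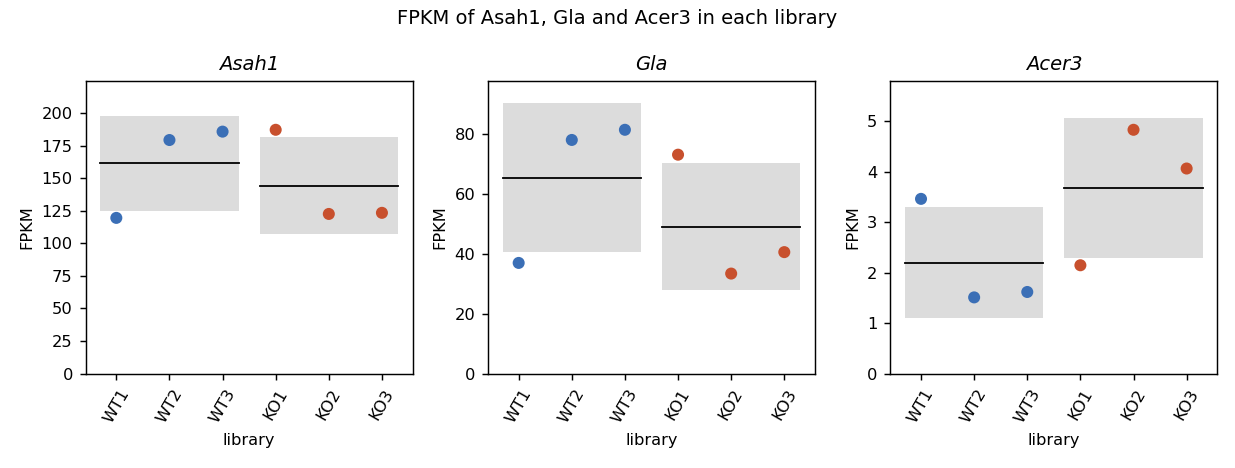
FPKM of Asah1, Gla and Acer3 in each library (vertical axes from 0; blue, WT; red, labelled KO; line, group mean; grey band, 1 SD, n = 3). WT1, KO2 and KO3 are low for Asah1 and Gla and high for Acer3.

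Smpd1 and its relatives by sequence, Smpdl3a and Smpdl3b, held the largest differences of the set and also one of the smallest. Smpd1, the acid sphingomyelinase that turns sphingomyelin into ceramide, read 8.96, 8.24 and 7.07 FPKM in WT and 11.6, 11.7 and 11.3 in KO. Every KO library was above every WT library, and the WT libraries were spread more widely than those labelled KO. The means were 8.09 ± 0.952 and 11.6 ± 0.204 FPKM (SD, n = 3). From counts, edgeR gave 0.50 on the log2 scale (SE 0.087), on 1816 to 3318 estimated counts. The call was lost without WT replicate 2, KO replicate 1 or KO replicate 2. Smpd1 stayed higher, with log2 fold changes of 0.41 to 0.58 with any 1 library left out.

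Smpdl3b, a membrane-anchored relative of Smpd1 that restrains Toll-like receptor signalling in macrophages, read 23.9, 22.8 and 22.8 FPKM in WT and 48.0, 50.3 and 48.8 in KO. The distance between the groups was many times the spread within them: the means were 23.2 ± 0.623 and 49.0 ± 1.15 FPKM, a log2 fold change of 1.07 (SE 0.038), on 3508 to 8589 estimated counts. A called change of at least 2-fold was found in 114 genes, 0.701% of those tested. The call of Smpdl3b held in all 14 alternatives, with log2 fold changes of 1.05 to 1.09. These reuse the libraries on which the gene was picked, so they show only how the call depends on the processing. Its rank among all genes by FPKM moved from 1905 in WT to 894 in KO.

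Smpdl3a, the secreted and lysosomal relative of Smpdl3b, known to cleave nucleotides, read 290, 288 and 296 FPKM in WT and 282, 288 and 292 in KO. These groups overlapped, with means of 291 ± 4.503 and 287 ± 4.93 FPKM (SD, n = 3). The log2 fold change was -0.04 with 95% limits of -0.09 and 0.01, which bounds the ratio between 0.942 and 1.01. The longest coding transcripts of Smpd1, Smpdl3a and Smpdl3b share 0 words of 31 bases with one another, and 0% of the words of each occur in annotated transcripts of any other gene, so their reads can be told apart.

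**Figure D3:**
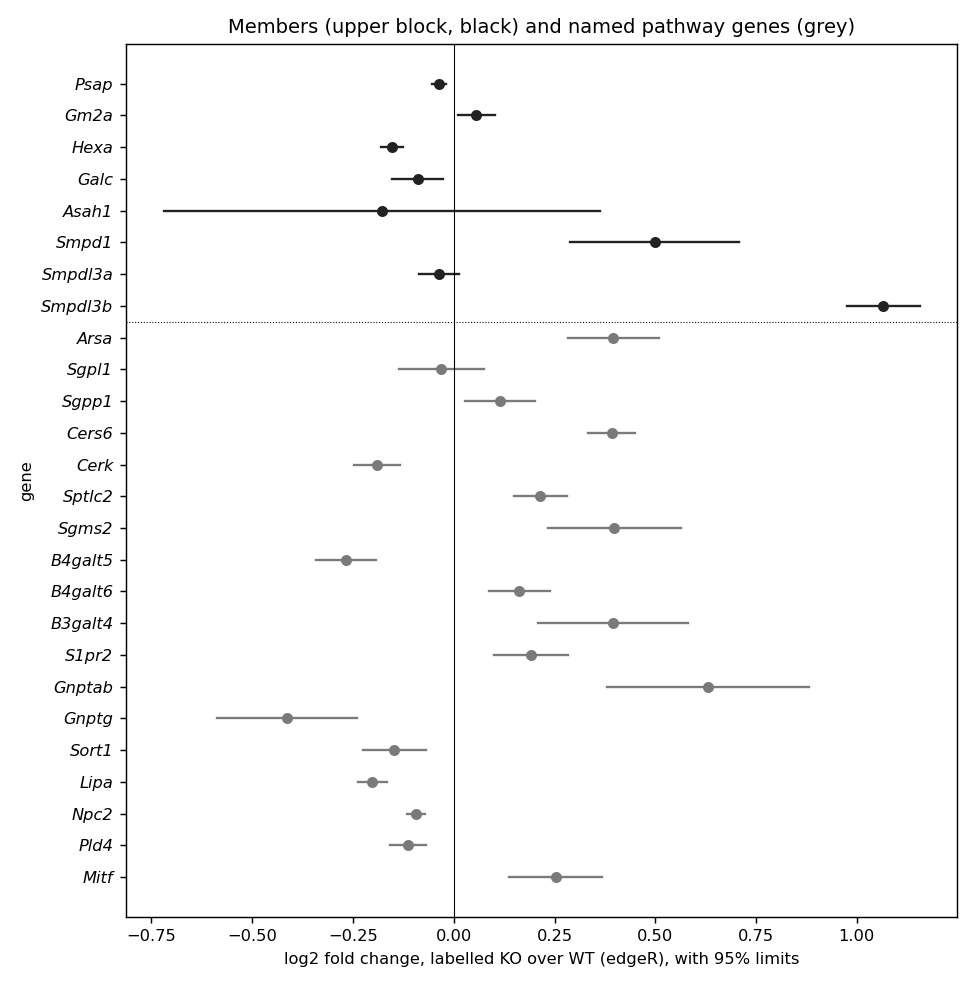
Log2 fold change, KO relative to WT (horizontal axis; points, edgeR estimates; lines, 95% limits) for the 8 genes (black) and the 18 named genes of the wider pathway (grey). Smpdl3b at 1.07 and Smpd1 at 0.50 stand to the right of the other 6 genes, and Asah1 has the widest limits.

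Beside Smpdl3b lies Xkr8, a gene of the phospholipid scramblase family, on the same strand with its nearest end 419 bases away. Xkr8 read 2.56, 2.28 and 2.5 FPKM in WT and 3.52, 3.49 and 3.6 in KO, and rose by 0.52 on the log2 scale (SE 0.07, edgeR adjusted p = 0.00548). It was found by listing every gene within 5 kb of the 8, after the values of Smpdl3b were known. The 4 others found were on opposite strands and carried at most 136 estimated counts: Cdh23 beside Psap, Tmem202 at Hexa, Gm47439 at Galc and Apbb1 beside Smpd1.

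The levels of the 8 genes spanned almost 3 orders of magnitude. In deposited FPKM the WT order was Psap, Hexa, Smpdl3a, Asah1, Gm2a, Smpdl3b, Galc and Smpd1, and only the WT ranges of the last pair touched (8.42 to 8.65 for Galc, 7.07 to 8.96 for Smpd1). Scaled to the longest coding transcript, Galc moved above Smpdl3b in WT, at 33.2 against 23.2, and Smpd1 came last at 11.2, with no overlap between neighbours. In the libraries labelled KO, Smpdl3b lay above Galc on that scale, 49.0 against 31.6, and the rest of the order was as in WT.

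**Figure D4:**
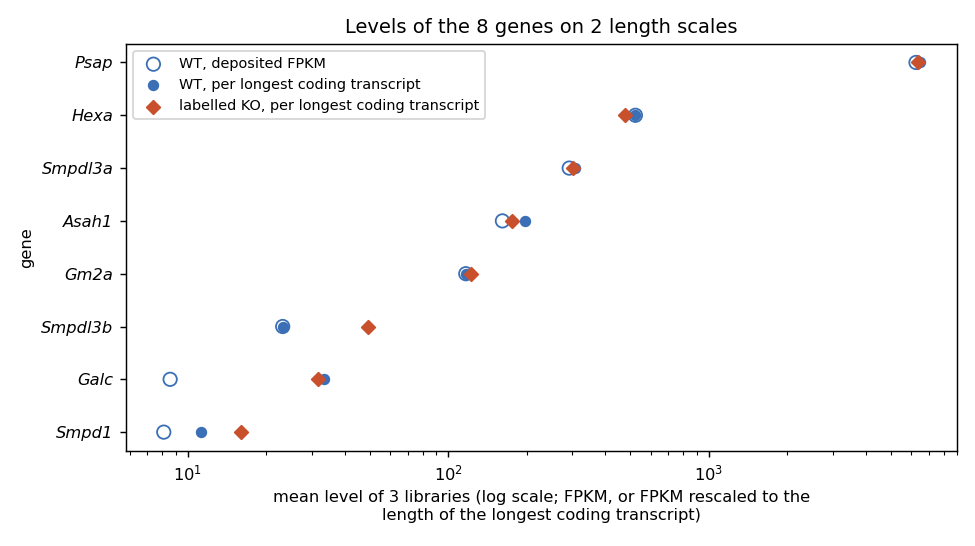
Mean level of each gene (horizontal axis, log scale) as deposited FPKM in WT (open circles) and rescaled to its longest coding transcript in WT (filled circles) and labelled KO (diamonds), n = 3 libraries each. Galc shifts from 8.56 to 33.2 with the length used, and on the coding-transcript scale Smpdl3b lies below Galc in WT and above it in KO.

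The 8 genes lie on 7 chromosomes of mm10, each at the same coordinates in the table and in GENCODE M21. Psap (ENSMUSG00000004207; chromosome 10, 60277627 to 60302597, plus strand) and Smpdl3a (ENSMUSG00000019872; chromosome 10, 57794335 to 57811830, plus strand) share one. Smpdl3b (ENSMUSG00000028885) is on chromosome 4 from 132732966 to 132757252, minus strand, and Smpd1 (ENSMUSG00000037049) on chromosome 7 from 105554360 to 105558389, plus strand. Hexa (ENSMUSG00000025232) is on chromosome 9 from 59539540 to 59565109, plus strand, and Gm2a (ENSMUSG00000000594) on chromosome 11 from 55098115 to 55113029, plus strand. Galc (ENSMUSG00000021003) is on chromosome 12 from 98202294 to 98259459 and Asah1 (ENSMUSG00000031591) on chromosome 8 from 41340197 to 41374773, both on the minus strand. The word GGACT, the DNA form of the commonest core of m6A sites, occurs 5 times in the longest coding transcript of Asah1 and 3 times in those of Smpd1 and Smpdl3b. It occurs 2 times in Psap and Gm2a, 1 time in Hexa and Galc and 0 times in Smpdl3a. Per kilobase this is 1.8 for Asah1, 1.5 for Smpdl3b, 1.24 for Smpd1 and 0 to 0.75 for the other 5, next to a median of 1.05 over 12545 tested genes. A word count does not show that a transcript is methylated.

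The genes most like 2 of the members over the 6 libraries, by Pearson correlation of log2(FPKM + 0.1) among 9305 genes, are given as a description. For Smpdl3b, whose values form 2 clusters by genotype, they were Fgl2 (r = 0.9997), the scavenger receptor gene Stab1 (r = 0.9994) and Pilrb2 (r = 0.9993), which rose by 0.25, 0.33 and 0.53 on the log2 scale. For Psap, whose levels lie close together, they were Grsf1 (r = 0.9898), Ms4a6d (r = 0.9884) and Stk11ip (r = 0.9878), none of them called.

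Other genes of sphingolipid metabolism and of enzyme delivery to the lysosome were listed by function. Of 86 listed, 74 were tested, and KO libraries had 9 higher and 8 lower, 23% against 12.7% of all genes, with a median log2 fold change of 0.06. The share over all genes depends on abundance: at a mean FPKM of at least 1 in either group, 2277 of 11093 genes were called, and 21 of 62 in the lists. With 1 library left out 10 to 13 were called, and 10, 11 and 10 without WT replicate 1, WT replicate 3 and KO replicate 3. Among the 10 tested lysosomal hydrolases and helpers that act beside the 8 genes, 1 rose and none fell (10% called, against 12.7% of all genes). That gene was Arsa, the arylsulfatase that desulfates sulfatide with the help of a saposin, at 8.49, 7.83 and 8.16 FPKM in WT and 10.8, 10.7 and 11.1 in KO, a rise of 0.40 on the log2 scale (SE 0.047, edgeR adjusted p = 0.00343).

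Genes that build ceramide and sphingomyelin were called 5 times in 18 (27.8%, against 12.7% of all genes), with 3 higher and 2 lower. Cers6, a ceramide synthase that prefers palmitoyl chains, had means of 22.5 ± 0.178 FPKM in WT and 29.8 ± 0.652 in KO (n = 3, SD) and rose by 0.39 on the log2 scale (edgeR adjusted p = 0.000286). Sptlc2, a subunit of serine palmitoyltransferase, the first enzyme of the pathway, rose by 0.22 (edgeR adjusted p = 0.00417), and the sphingomyelin synthase gene Sgms2 by 0.40 (edgeR adjusted p = 0.0137). The call of Sgms2 was lost without KO replicate 1 and with a replicate block (edgeR adjusted p = 0.0519 in each). The genes that fell were Cerk, the ceramide kinase (log2 fold change -0.19, edgeR adjusted p = 0.00403), and Sptssa, a small subunit of serine palmitoyltransferase, from 27.7 to 23.1 FPKM.

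In glycosphingolipid synthesis 2 of 9 tested genes rose and 1 fell (33.3% called, against 12.7% of all genes). B4galt5, the main lactosylceramide synthase, had means of 43.8 ± 0.379 FPKM in WT and 36.8 ± 1.21 in KO (n = 3, SD) and fell by 0.27 on the log2 scale (edgeR adjusted p = 0.00322). Its relative B4galt6 rose by 0.16 and the ganglioside enzyme B3galt4 by 0.40. The B4galt6 call was lost without any 1 library but KO replicate 1 (edgeR adjusted p 0.0524 to 0.0715). The B3galt4 call was lost without any 1 but WT replicate 2 (edgeR adjusted p from 0.0515 to 0.0795). Of 8 tested sphingosine 1-phosphate genes, the receptor gene S1pr2 alone was called, higher by 0.19 on the log2 scale (12.5% called, against 12.7% of all genes). The S1pr2 call was lost without any 1 library but KO replicate 1 (edgeR adjusted p between 0.05 and 0.0837). None of 11 tested genes for breakdown outside the lysosome was called, where 12.7% of all genes were. The most abundant of the 11 were Sgpl1, the sphingosine phosphate lyase, at 109 FPKM in WT and 108 in KO, and Sgpp1, a phosphatase of the same pathway, at 9.77 and 10.7.

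Of 8 tested delivery genes, 1 was higher, 2 were lower and 5 were not called (37.5% called, against 12.7% of all genes). Gnptab, which encodes the catalytic subunits of the transferase that puts the mannose 6-phosphate tag on lysosomal enzymes, read 20.5, 20.5 and 20.3 FPKM in WT and 34.6, 26.5 and 34.9 in KO, and rose by 0.63 on the log2 scale (SE 0.105, edgeR adjusted p = 0.0121). Gnptg, the gamma subunit of the same transferase, read 11.6, 10.3 and 11.1 FPKM in WT and 7.79, 8.87 and 8.40 in KO, and fell by 0.41 (SE 0.073, edgeR adjusted p = 0.0145). Leaving out WT replicate 1, WT replicate 3 or KO replicate 3 ended the Gnptg call (edgeR adjusted p 0.0513 to 0.0531). Sort1, a sorting receptor for prosaposin, fell by 0.15 on the log2 scale, a call lost without any 1 library (edgeR adjusted p from 0.0696 to 0.107).

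Of 6 other lysosomal lipid genes, 3 fell by small amounts and none rose (50% called, against 12.7% of all genes). They were Lipa, the acid lipase, by 0.20 (edgeR adjusted p = 0.000569), the cholesterol carrier gene Npc2 by 0.09 (edgeR adjusted p = 0.00206) and Pld4, an exonuclease of the phospholipase D family, by 0.11 (edgeR adjusted p = 0.0122). Among 4 transcription factors of the TFEB family Mitf was called, higher by 0.25 (edgeR adjusted p = 0.0193), which is 25% against 12.7% of all genes. Mitf did not pass when WT replicate 1, WT replicate 2, KO replicate 1 or KO replicate 3 was left out (edgeR adjusted p 0.0576 to 0.0743). Tfeb itself was at 4.75 ± 0.852 FPKM in WT and 5.42 ± 1.65 in KO (SD, n = 3) and was not called. In the table's own KEGG annotation 6 of the 8 genes carry the lysosome term, all but Smpdl3a and Smpdl3b. Of the other 110 tested genes with that term, 14 were higher and 20 lower (30.9%, against 12.7% of all genes), with a median log2 fold change of -0.01. Genes matched for abundance were not compared, and 2277 of 11093 genes were called at a mean FPKM of at least 1 in either group. The sphingolipid metabolism term holds Galc, Asah1 and Smpd1, and of its other 34 tested genes 5 were higher and 1 lower (17.6%), with a median of 0.11.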

How the data were processed

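Poly(A) RNA was sequenced in 6 libraries. The submitters' processing notes list mm10 and the tools HISAT2 2.0.4, StringTie 1.3.4d and cutadapt 1.9; their settings and strand handling are unknown here. The authors deposited FPKM per gene and library (0.0001 at a count of 0). They also deposited estimated counts as whole numbers, which need not be tallies of single reads: 36.9% to 40.4% of values from 1 to 20 were multiples of 4. After rounding, edgeR 4.0.16 under R 4.3.3 tested the counts (TMM, filterByExpr with minimum count 10 and minimum total 15, glmQLFit, glmQLFTest), with Benjamini-Hochberg adjustment over 16256 genes. Log2 fold changes are edgeR estimates from counts unless another method is named, and need not match the ratio of FPKM means. The edgeR script was tested on simulated data. Alternatives used DESeq2 1.42.0, limma 3.58.1, other filters and factors, a replicate block and each library left out.

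The members, gene lists and motifs were chosen with earlier results of these data known. Named genes are the 8 members and Mettl3; all called genes of 4 lists (lysosomal partners, enzyme delivery, other lysosomal lipids, transcription factors); up to 4 called genes by adjusted p of each other pathway list, or its 2 most abundant where none was called; and the 3 genes most like Psap and Smpdl3b. Gla, Acer3, Nanp, Yeats4, Uvrag, Sptssa, Tfeb, Xkr8, Pf4, Ccr7 and the macrophage and neutrophil markers were added after their values were seen. Lengths, overlaps and transcript words came from GENCODE M21, which holds 99.5% of the table's identifiers. Some results are not reported here.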

Additional observations from a re-analysis of the deposited data

How the results depend on the processing

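Over 14 alternatives no member changed direction. The count of called members was 2 to 5, and 2 to 4 with 1 library left out; Smpdl3b and Hexa were called in every alternative. Of 252 values for 18 named pathway genes, 38 lost the call and 2 reversed, both for the uncalled Sgpl1, to 0.0011 without WT replicate 2 and 0.0087 without KO replicate 1 (range with 1 library left out -0.0579 to 0.0087). With 1 library left out, 1244 to 1339 genes were called over the table and 10 to 13 in the pathway lists, and the Mettl3 fold change ran from -0.0661 (without WT replicate 3) to 0.1116, and was -0.0552 without KO replicate 3. Labels number the replicates alike in both genotypes, but same-numbered libraries did not deviate together (correlations of -0.055 to 0.008). So few values cannot show whether same-numbered libraries share more than a number, and the main test took them as unpaired. With a replicate block 1012 genes, 10 pathway genes and 3 members were called. Psap, Sgms2, Gnptg, B4galt6, B3galt4, S1pr2 and Sort1 lost their calls there (edgeR adjusted p 0.0519 to 0.0944). The lowest estimated count of a member was 1816, and the repeated sampling behind estimated counts is not known, so no counting interval is given.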
